A study of Mus musculus with 384 samples.

Results

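Chil1, Cxcl12, Cxcl14, Il17b, Tm4sf1, Fst and Tril are 7 of the 49585 genes counted in single cells of the mouse mammary gland and its embryonic rudiment. They encode secreted or membrane proteins with signalling roles. They were chosen by their measured levels, several for a large ratio of adult basal to embryonic or luminal cells in these same wells, so those ratios are given as description and carry no test. Their levels go against a common basal name in part: Tm4sf1 was higher in luminal than in basal wells, and Cxcl14 and Tril were also abundant in the embryo.

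Cells were sorted into 1 plate of 384 wells, and their RNA was read by Smart-seq2, which covers transcripts over their full length. The embryonic gate held cells with high Lgr5 reporter signal and high CD49f from the skin, with its mammary buds, of female Lgr5-EGFP-IRES-CreER embryos at embryonic day 14. Lgr5 is a receptor of the Wnt pathway, and the reporter marks cells that transcribe it. The adult basal gate was CD24+ with high CD29 and the adult luminal gate CD24+ with low CD29, both from Rosa-tdTomato glands, with no treatment named and no adult age given. Cells positive for CD45, CD31 or CD140a were excluded in all 3 gates. Each gate also had 1 well of 50 cells. Adult tissue was digested for longer and with an added trypsin step, so stage, mouse line, dissociation and sort cannot be told apart between the embryonic and adult gates.

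The mammary duct has an inner layer of luminal cells, which make milk or sense hormones, and an outer layer of basal cells, most of them contractile myoepithelium lying on the basement membrane. Basal cells send signals to luminal cells, stroma and immune cells through chemokines, cytokines and secreted inhibitors. Chemokines are small secreted proteins that guide cells through receptors on their surface, and follistatin, the product of Fst, binds activins and keeps them from their receptors.

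Promoter windows from RefSeq (GRCm38.p6) were examined for 5 of the 7 genes. No window was examined for the other genes, so their absence here says nothing about what RefSeq holds. The last 100 bases before the RefSeq start are shown because their CG content differed; CG pairs, the sites of DNA methylation, are in capitals. Each is 5′ to 3′ on the gene's strand, from chr1:134182056-134182155 (plus) for Chil1, chr3:57301989-57302088 (minus) for Tm4sf1, chr6:117168435-117168534 (plus) for Cxcl12, chr13:56296552-56296651 (minus) for Cxcl14 and chr6:53820826-53820925 (minus) for Tril.
Chil1: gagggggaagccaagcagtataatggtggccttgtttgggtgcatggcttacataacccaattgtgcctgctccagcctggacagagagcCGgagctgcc
Tm4sf1: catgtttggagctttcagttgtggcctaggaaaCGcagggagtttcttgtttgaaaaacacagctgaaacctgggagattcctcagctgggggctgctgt
Cxcl12: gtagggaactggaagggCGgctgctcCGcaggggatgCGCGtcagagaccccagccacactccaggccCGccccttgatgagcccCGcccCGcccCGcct
Cxcl14: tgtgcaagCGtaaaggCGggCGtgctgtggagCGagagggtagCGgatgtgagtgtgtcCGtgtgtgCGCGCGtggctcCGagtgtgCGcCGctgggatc
Tril: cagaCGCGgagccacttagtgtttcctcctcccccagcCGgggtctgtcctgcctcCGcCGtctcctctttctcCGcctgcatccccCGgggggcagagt

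Over the full 250 bases before the start, Chil1 had 2 CG pairs and Tm4sf1 had 1. Cxcl12 had 14, Cxcl14 16 and Tril 20, against a median of 6 over all 32851 promoter windows of that length. Searched on both strands, the letters CCAAT lay in the Chil1 and Tm4sf1 windows and in 33.8% of all windows. GGGCGG, which itself holds a CG pair, lay in the Cxcl12 window 5 times and in the Tril window once, and in 32.7% of all windows. TATAAA, in 12.4% of all windows, was in none of the 5. As few CG pairs as in the Tm4sf1 window, or fewer, lay in 19% of all windows. As many as in the Tril window, or more, lay in 18%, so none of the 5 counts was rare. These are counts of letters in 5 windows. No methylation was measured, and a link between CG pairs and level was not tested.

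Single-cell wells with at least 50000 reads on genes, spike-ins excluded, numbered 347, of which 36.6% were embryonic, 31.1% basal and 32.3% luminal, after 10 embryonic, 10 basal and 9 luminal wells fell below that limit. Median depth was 697578, 450196 and 525176 reads, and the wells of 50 cells held 532820 to 621792. The wells nearest the limit had 40097 and 52687 reads in the embryonic gate, 48061 and 52500 in the basal gate and 47134 and 63571 in the luminal gate. Those just outside it had reads of 1, 4 and 2 members, those just inside of 1, 5 and 2. The 4 wells without a cell, with 34 to 563 gene reads, had no member read. By correlation over 10315 genes, all but 1 embryonic, 10 basal and 3 luminal wells were nearest to their own gate's well of 50 cells. Of those 10 basal wells, 8 were nearest to luminal and 2 to embryonic. Acta2 and Krt14, of myoepithelial and basal cells, stood at 9455 and 2193 CPM (reads scaled to 1000000 gene reads) in the basal gate, against 99.5 and 36.6 in the luminal gate, and Krt8 and Krt18, luminal keratins, at 912 and 723 against 4694 and 6280. The labels name no animal, so each gate is 1 sample and its wells are not replicates. Intervals are exact at 95% and cover the counting of reads or wells only, and, with no molecular identifiers, amplified reads do not each stand for a molecule.

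Reads were summed over the wells of a gate and scaled to CPM. In the basal gate, the level per kilobase of exon was 2138 CPM for Chil1, 366 for Cxcl14, 296 for Il17b, 213 for Tm4sf1, 125.2 for Fst, 83.8 for Cxcl12 and 45.3 for Tril. Against the embryonic gate, 6 of the 7 genes were at least 2-fold higher in basal wells, where 20% of 12808 measured genes were, and 5 were at least 10-fold higher, where 7.21% were. A gene counted as measured when 1 of the gates compared reached 5 CPM. Against the luminal gate, 6 were at least 2-fold and 5 at least 10-fold higher in basal wells, against 29.3% and 10.8% of 11885 genes. Tm4sf1 was at least 2-fold higher in luminal wells, as were 22.1% of genes. Between the embryonic and luminal gates, 5 members were measured. Cxcl14 and Tril were higher in the embryo, as were 40.3% of 12679 genes, and Chil1 and Tm4sf1 were higher in luminal wells, as were 18.2%. Because the genes were chosen for such ratios, nothing is read from these counts. The median log2 ratio of the members, with 1 CPM added to each level, was 7.87 for basal over embryonic and 6.48 for basal over luminal, beside −0.38 and 0.14 over all measured genes.

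**Figure D1:**
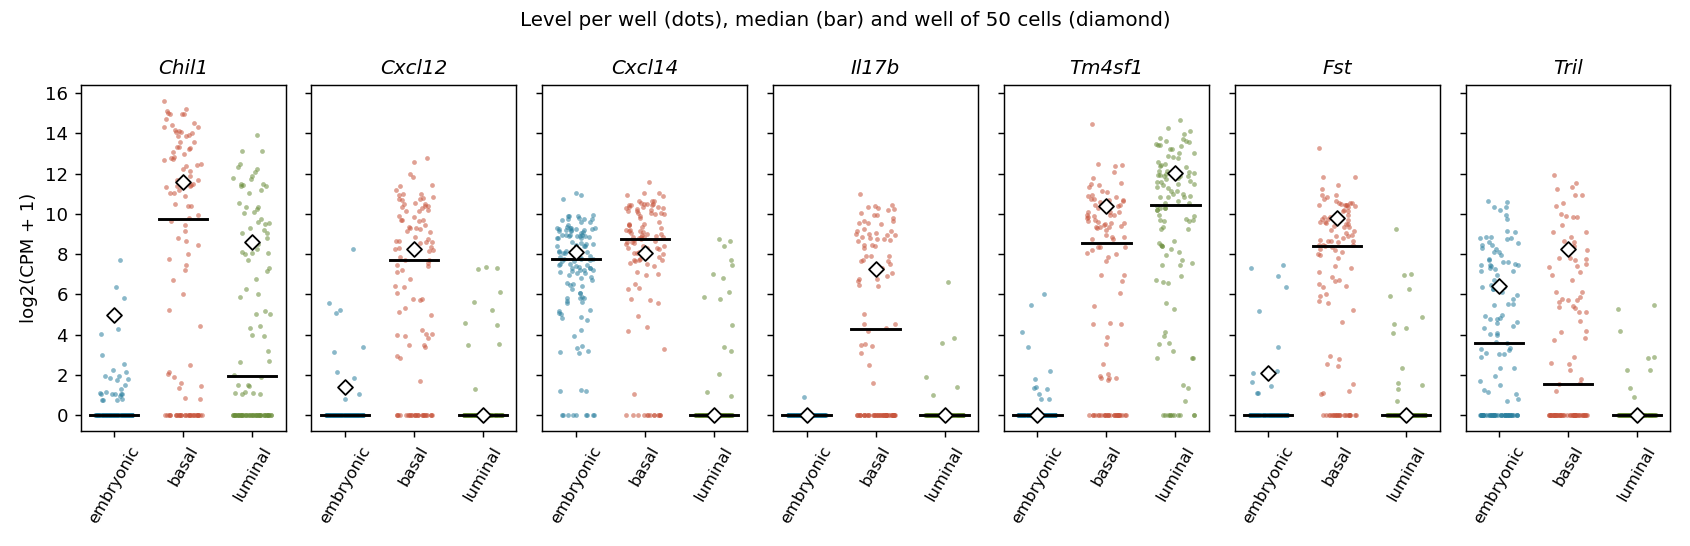
Level of each gene in each single-cell well on a log2(CPM + 1) axis, by gate, with the median of the wells as a bar and the well of 50 cells as a diamond. Cxcl14 and Tril have many embryonic wells above 0, and the luminal median of Tm4sf1, 1415 CPM, lies above its basal median of 378 CPM.

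The chemokine Cxcl12 (chr6:117168535-117181367 of GRCm38, plus strand) acts on the receptor Cxcr4 and is scavenged by Ackr3. Its summed level was 685 CPM (678 to 692) in basal wells, 4.78 (4.28 to 5.33) in luminal wells and 1.92 (1.65 to 2.23) in embryonic wells. Single basal wells ran from 0 to 7063 CPM with a median of 209, and 58 of them lay above the highest luminal well, at 165 CPM. The basal sum was 143-fold the luminal (128.4 to 160.1) and 356-fold the embryonic (307 to 416). A single embryonic well, in a plate row shared with basal wells, held 48.5% of the embryonic reads, and without it the embryonic level was 0.993 CPM and the ratio 689.9. The groups overlap at low levels, since 26 basal wells had no read.

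The basal Cxcl12 signal was uneven across cells. The well with the most reads held 17% of the gate's Cxcl12 and carried 8 of 10 endothelial markers and none of the 10 basal markers. Without it the basal level was 578 CPM. The 7 basal wells with at least 3 endothelial markers held 5.37% of the gate's reads but 31.9% of its Cxcl12, at 4065 CPM (3993 to 4139), although the sort removed cells with CD31, an endothelial protein. Summed endothelial markers were 552 CPM in the basal gate (0 to 11668 per well), 27.7 in the embryonic and 16.6 in the luminal gate, with Kdr, Tek, Emcn and Egfl7 at 0 in luminal wells. In 86 basal wells that were nearest to their own gate and had fewer than 3 markers of endothelium, fibroblasts, pericytes or immune cells, Cxcl12 was 545 CPM (538 to 553), and 59.3% of those wells had it at equal depth. The endothelial-marked wells stood 7.46-fold above these (7.29 to 7.62).

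Cxcl14 (chr13:56288643-56296551, minus strand) encodes a chemokine made by many epithelia, skin included. Its level was 668 CPM (661 to 675) in basal wells, 312 (308 to 316) in embryonic wells and 11.1 (10.3 to 11.9) in luminal wells. Basal wells ran from 0 to 3082 CPM around a median of 424 and embryonic wells from 0 to 2095 around 214, so that 1 basal well lay above every embryonic well. It was the most widely detected member in basal wells. After every well was thinned to 50000 reads and at least 5 reads counted as detection, it was found in 79.6% of basal (70.8 to 86.8), 70.1% of embryonic (61.3 to 77.9) and 6.25% of luminal wells (2.55 to 12.4).

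Between basal and embryonic wells the Cxcl14 ratio of 2.14 (2.11 to 2.17) depended on how the level was scaled. The wells of 50 cells had 266 and 277 CPM, a ratio of 0.961 (0.770 to 1.20), and with spike-in reads as the total the log2 ratio was −0.24 in place of 1.10. The mean of the wells' own CPM gave 0.86. Scaling by TMM and by median-of-ratios gave 1.42 and 1.47. The basal to luminal ratio of 60.3 (56.1 to 64.9) and the embryonic to luminal ratio of 28.2 (26.2 to 30.3) kept their direction under the alternatives run, but the basal over luminal log2 ratio, 5.79, ran from 2.75 in plate rows that held both gates to 8.43 against luminal wells of rows with no basal well.

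Il17b, a cytokine of the interleukin 17 family that acts through the receptor Il17rb, was nearly confined to the basal gate in reads. It had 288 CPM (283 to 292) in basal wells, 1.93 (1.62 to 2.29) in luminal wells and 1 read in all embryonic wells together. In basal wells the lowest level was 0, the median 18.2 and the highest 2040 CPM, and 8 wells held most of its reads. The ratio to luminal wells was 149 (125.6 to 178). That to embryonic wells was 25890, with an interval from 4646 to 1022651 because it rests on that 1 read. At equal depth it was found in 43.5% of basal wells (34 to 53.4) and 0.893% of luminal wells, and in 0 embryonic wells, which allows a share of up to 2.36%. The gene lies at chr18:61684887-61692538, and Gm38165 overlaps it on the opposite strand. Which strand the counting used is not stated, so reads of the pair cannot be told apart.

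In the luminal gate, 90.2% of the Il17b reads came from 1 well with 3 basal, 7 secretory and 7 hormone-sensing markers. Without that well, in plate row F, the luminal level was 0.194 CPM and the basal to luminal ratio 1487.

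Fst had 575 CPM (568 to 581) in basal wells, 5.75 (5.26 to 6.27) in embryonic wells and 5.44 (4.90 to 6.02) in luminal wells. Basal wells ran from 0 to 9807 CPM around a median of 343, and 62 of them lay above the highest embryonic well, at 175 CPM. The basal sum was 99.9-fold the embryonic (91.6 to 109.2) and 105.6-fold the luminal (95.3 to 117.3). Of the luminal reads, 44.4% were in 1 well that was nearest to the basal well of 50 cells and carried 9 of 10 basal markers. Without it the luminal level was 3.04 CPM and the ratio 189. The embryonic to luminal ratio was 1.06 (0.923 to 1.21), an interval that holds 1. Fst (chr13:114452290-114458951, minus strand) overlaps Gm47040 on the opposite strand, with the same limit as for Il17b.

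Low Fst outside the basal gate came from few wells. In the embryonic gate, the 22 wells with at least 3 fibroblast markers had 19.2 CPM (17.1 to 21.5) against 2.99 (2.61 to 3.41) in the others, and held 56.9% of the gate's Fst reads. Summed fibroblast markers reached 93936 CPM in 1 embryonic well, with a median of 233. At equal depth Fst was found in 2 of the 22 wells with fibroblast markers and in 1 of the other embryonic wells. The median Fst level was 0 in both sets. The difference between the sums thus rests on few wells and is not a trait of most of the 22. The part of fibroblast markers in the Fst level was not tested.

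Chil1 (chr1:134182176-134190181, plus strand) encodes a secreted chitinase-like glycoprotein first known from the regressing breast, which binds chitin without cleaving it. It was the 8th most abundant gene of the basal gate by CPM, at 5994 (5973 to 6015), and had 1036 (1028 to 1043) in luminal wells and 4.04 (3.63 to 4.47) in embryonic wells. In basal wells the median was 846 CPM and the highest 50728, with 31 wells at 0. In luminal wells the median was 2.80 and the highest 15736. The distributions overlap over most of their range, and 17 basal wells lay above the highest luminal one. The basal sum was 5.79-fold the luminal (5.74 to 5.83) and 1485-fold the embryonic (1340 to 1650). Of the 363 embryonic reads, 54.3% were in 1 well, without which the embryonic level was 1.87 CPM and the ratio 3212. That well, the 1 embryonic well of plate row F beside 8 basal wells, was nearest to its own gate but carried 5 of 10 basal markers, with Cxcl12 at 32.3, Fst at 35.4 and Tm4sf1 at 9.37 CPM. Whether basal RNA reached it was not tested. The embryonic well of 50 cells had 30.6 CPM and the basal one 3108, a ratio of 101.7 (64.95 to 169). In such wells fewer expressing cells and less RNA per cell cannot be told apart.

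Luminal Chil1 was higher in wells with secretory markers. When each luminal well was assigned by whether more secretory or more hormone-sensing markers were detected, the 64 secretory wells had 1778 CPM (1764 to 1792) and the 46 hormone-sensing wells 158 (154 to 162), an 11.3-fold ratio (10.9 to 11.6). Detection at equal depth was 57.8% (44.8 to 70.1) and 6.52% (1.37 to 17.9). The well with the most luminal Chil1 held 33% of the reads and carried 8 of 10 secretory markers, and without it the ratio was 7.34. Without the top hormone-sensing well, the hormone-sensing level was 72.5 CPM and the ratio 24.5. Of the luminal wells, 2 had equal numbers of both kinds of marker. Median summed secretory markers were 43754 CPM in the secretory wells and 164 in the others, and median summed hormone-sensing markers were 93.7 and 11290. The 86 basal wells without other markers, at 6993 CPM, were 3.93-fold above the secretory luminal wells (3.90 to 3.97).

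Tm4sf1, which spans the plasma membrane several times and is known from tumour and endothelial cells, had its highest level in luminal wells. The sums were 3294 CPM (3280 to 3308) in luminal, 885 (877 to 893) in basal and 1.09 (0.885 to 1.33) in embryonic wells. Luminal wells ran from 0 to 26217 CPM around a median of 1415 and basal wells from 0 to 22724 around 378, and no basal well exceeded the highest luminal well. The luminal sum was 3.72-fold the basal (3.68 to 3.76), and the wells of 50 cells, at 4240 and 1329 CPM, gave 3.19-fold. Basal wells stood 812-fold above embryonic wells (667 to 1001), and 72 of the 98 embryonic reads were in 1 well, without which the ratio was 3024. Detection at equal depth was 75.9% in luminal (66.9 to 83.5), 59.3% in basal (49.4 to 68.6) and 0.787% in embryonic wells. The gene lies at chr3:57285611-57301988 on the minus strand.

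As with Chil1, secretory luminal wells had more Tm4sf1 than hormone-sensing ones, 5271 against 1241 CPM, a 4.25-fold ratio (4.202 to 4.295), and detection was 89.1% against 58.7%. Unlike Chil1, Tm4sf1 was also common among hormone-sensing wells. In the basal gate the 7 endothelial-marked wells had 2472 CPM and 15.0% of the gate's Tm4sf1, and the 86 wells without other markers had 838 (829 to 847). Secretory luminal wells stood 6.29-fold above those 86.

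Tril encodes a membrane protein with leucine-rich repeats that works with Toll-like receptors. It had 243 CPM (239 to 247) in basal wells, 144 (141 to 146) in embryonic wells and 0.60 (0.430 to 0.814) in luminal wells. Basal wells ran from 0 to 3878 CPM around a median of 1.94, and embryonic wells from 0 to 1595 around 11. Both medians lie far below 100 CPM, the level of detection at equal depth. Embryonic wells were also deeper, so these medians do not order the gates. At equal depth Tril was found in 29.6% of basal wells (21.2 to 39.2), in 32.3% of embryonic wells (24.3 to 41.2) and in 0 luminal wells, which allows up to 2.68%. The basal to embryonic ratio was 1.69 (1.65 to 1.73), and 3.62 (2.64 to 5.02) in the wells of 50 cells. With spike-in reads as the total the log2 ratio was −0.58. The basal to luminal ratio was 405 (299 to 565) and the embryonic to luminal ratio 240 (177 to 334). Tril (chr6:53815468-53820830, minus strand) overlaps the antisense gene Gm16499.

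Summed Tril was also higher in wells with markers of other cells, in the basal gate through few wells. Embryonic wells with at least 3 fibroblast markers had 296 CPM (288 to 305) against 112.6 in the others, a 2.63-fold ratio (2.54 to 2.73), while Cxcl14 was lower in them, at 246 against 326 CPM. Summed fibroblast markers were 3923 CPM in the embryonic, 2516 in the basal and 75.8 in the luminal gate, with Lum at 0 in luminal wells. Of the basal sum, Postn was 1475 CPM and Dcn 924, found at equal depth in 58.3% and 43.5% of basal wells. The other genes of the list ran from 0.202 (Lum) to 58.1 CPM (Pdgfra) in the basal gate. In the basal gate, the 6 wells with at least 3 fibroblast markers had 603 CPM of Tril and held 15.8% of its reads. The 7 endothelial-marked wells had 435 CPM and 9.60%. At equal depth Tril was found in 3 of those 6 wells and in 2 of those 7. The 2 wells with at least 3 pericyte markers had 702 CPM of Tril, 6.44% of its reads, all of it in 1 well. They had 630 CPM of Tm4sf1 and at most 3 reads of any other member. The 86 basal wells without other markers had 219 CPM of Tril (214 to 223). Whether these cells account for the difference between gates was not tested.

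**Figure D2:**
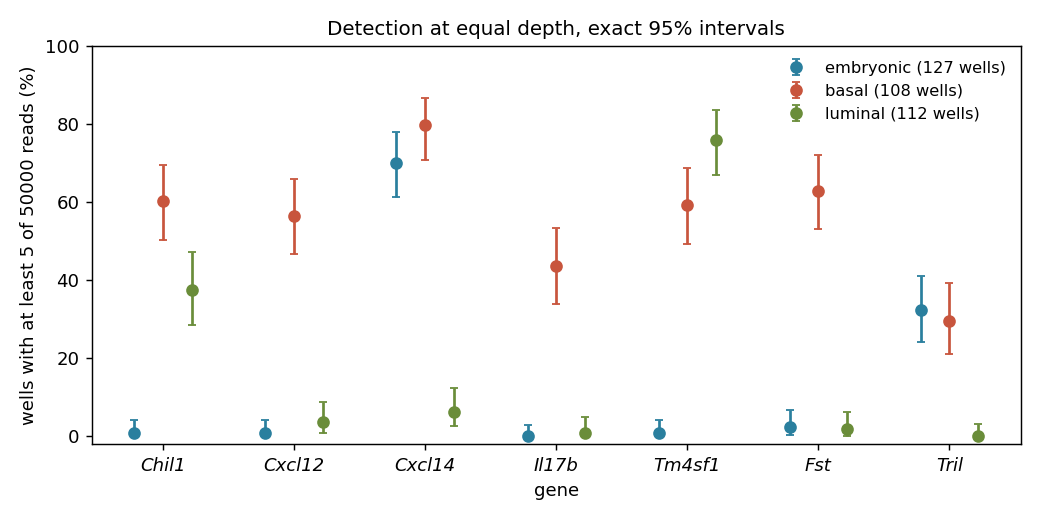
Share of wells, in percent, with at least 5 reads of each gene after every well was thinned to 50000 reads, for embryonic, basal and luminal wells, with exact 95% intervals as bars. Basal shares run from 29.6% for Tril to 79.6% for Cxcl14, and in the embryo only Cxcl14 (70.1%) and Tril (32.3%) pass 10%.

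The low luminal levels of 5 members were concentrated in wells with basal markers. In the luminal gate, 8 wells carried at least 3 of the 10 basal markers and made up 5.17% of the gate's reads. They held 84.1% of luminal Cxcl12, 69.6% of Cxcl14, 92.4% of Il17b, 82% of Fst and 73.2% of Tril reads. Of Chil1 they held 13.6% and of Tm4sf1 1.66%. In the other luminal wells Cxcl12 was 0.802 CPM, Cxcl14 3.55, Fst 1.03, Tril 0.170 and Il17b 0.154. At equal depth Cxcl12, Il17b, Fst and Tril were found in none of these wells, which allows up to 2.88%. Between the 86 basal wells without other markers and these, the ratio was 680 for Cxcl12 (518 to 910), 232 for Cxcl14 (204 to 265) and 659 for Fst (519 to 851), each larger than between the full gates. These luminal wells were singled out after the data were seen, and no doublet caller was run.

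All 8 of those luminal wells lay in plate row F, which also held 8 basal wells. The 15 luminal wells of that row made up 10.4% of the gate's reads and held 99.7% of luminal Cxcl12, 92.7% of Cxcl14, 98.5% of Il17b, 98.9% of Fst and 95.1% of Tril. The 95 luminal wells of rows with no basal well had 1 read of Cxcl12, 2 of Il17b, 3 of Fst and 2 of Tril in all, and 0.942 CPM of Cxcl14, while Chil1 was 987 and Tm4sf1 3618 CPM in them. Against those wells the basal log2 ratio, with 1 CPM added, was 9.40 for Cxcl12 in place of 6.89, 9.10 for Fst in place of 6.48 and 8.13 for Il17b in place of 6.62. The low luminal levels of these 5 genes thus came mostly from 1 plate row. Whether its luminal wells received basal cells or basal RNA was not tested.

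In the embryonic gate the 25 wells of rows shared with basal wells made up 19.7% of the reads. They held 86.7% of embryonic Tm4sf1, 67.6% of Cxcl12, 59.2% of Chil1 and 48.4% of Fst reads, but 25.7% of Tril and 13.9% of Cxcl14. In the other embryonic wells Chil1 was 2.05 CPM, Cxcl12 0.776, Fst 3.70 and Tm4sf1 0.180. In these sums, rows without basal wells had less of the 4 genes that were scarce in the embryo, and Cxcl14 was 334.5 CPM there. For Chil1, Cxcl12 and Tm4sf1, a single well held most of the reads of the shared rows. The sums therefore do not show a difference common to the wells of those rows. The part of plate position in these levels was not tested.

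The reverse set, the 8 basal wells nearest to the luminal well of 50 cells, differed by member. They held 11.6% of the gate's reads, and 4 reads of Fst and none of Tril. Cxcl12 was 61.3 CPM and Il17b 97.1 in them. Tm4sf1 was 911 CPM, against 885 in the whole gate, and Chil1 3745. The medians of the 8 wells were 0 for Cxcl12 and Il17b, 18.9 CPM for Chil1 and 487 for Tm4sf1. A single well held all of their Cxcl12 reads, with Chil1 at 26599 CPM and Il17b at 603. The 6 basal wells with fibroblast markers had reads of every member in their sum, with Chil1 at 10839 CPM and Fst at 691. At equal depth Tril was found in 3 of them. Chil1, Cxcl12, Il17b and Fst were found in 4 each, and Cxcl14 and Tm4sf1 in 5 each.

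**Figure D3:**
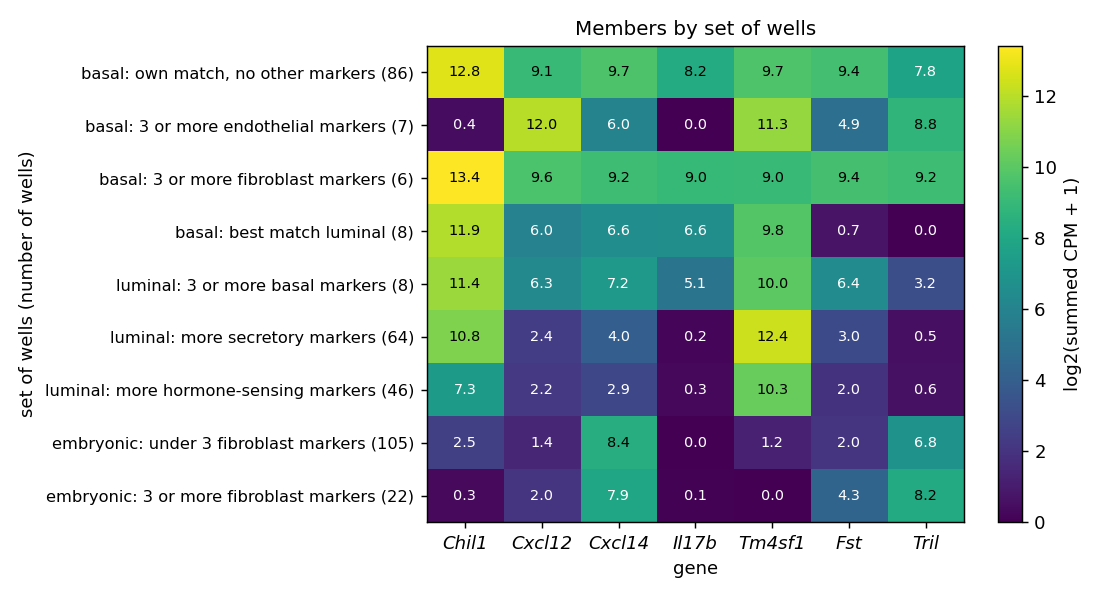
Summed level of each gene, as log2(CPM + 1), in sets of wells formed by best match or by markers detected, with the number of wells in brackets. The 7 endothelial-marked basal wells have Cxcl12 at 4065 CPM and 1 read of Chil1, and the 64 secretory luminal wells have Tm4sf1 at 5271 CPM.

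After every well was thinned to 50000 reads, 35 basal wells had at least 1 read of Lgr5, the gene that marked the embryonic sort. Cxcl14 was 1066 CPM (1052 to 1081) in them and 435 (428 to 442) in the 73 without, and Tm4sf1 was 1063 and 781. Cxcl12 was lower in them, at 383 (374 to 391) against 862 (852 to 872). Of the 7 endothelial-marked wells, 6 were among the 73. Among the 86 wells without other markers, Cxcl14 was 1155 CPM in the 31 with Lgr5 and 554 in the other 55, and Cxcl12 was 423 and 643. Fst was 586 and 758, Tril 291 and 161, Tm4sf1 983 and 720, Chil1 6248 and 7591, and Il17b 233.5 and 351. Median depth was 584931 reads in the 31 wells and 316758 in the 55. The part of depth in these levels was not tested. This is a comparison within 1 sort, and it has no replicate.

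Basal wells usually carried several of the genes at once. Several members were chosen for high basal ratios in these same wells, so the difference between gates is description only. The median number of members found at equal depth was 4 in basal, 1 in embryonic and 1 in luminal wells. At least 3 members were found in 88 basal wells (81.5%, 72.9 to 88.3), in 2 embryonic wells and in 6 luminal wells. All 7 were found in 3 basal wells and none in another 3. At least 1 member was found in 97.2% of basal (92.1 to 99.4), 80.3% of embryonic and 82.1% of luminal wells, the embryonic share resting mainly on Cxcl14 and the luminal share on Tm4sf1.

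Within the basal gate the members varied largely apart from each other. Spearman correlations of log2(CPM + 1) over all basal wells, which share plate and sort and differ in depth, ran over 21 pairs from −0.22 for Chil1 with Tm4sf1 to 0.45 for Il17b with Fst. Il17b with Chil1 gave 0.30, Cxcl14 with Fst 0.36, and Cxcl12 at most 0.20 with any member. Against lineage genes, Cxcl14 gave 0.60 with Krt14 and 0.51 with Acta2, smooth muscle actin of the contractile cells, and Fst gave 0.52 with Acta2. Over the 86 wells without other markers these were lower, at 0.43, 0.28 and 0.30, Il17b with Fst was 0.33, and Chil1 with Acta2 was −0.27. These are descriptions of 1 sort and carry no test.

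**Figure D4:**
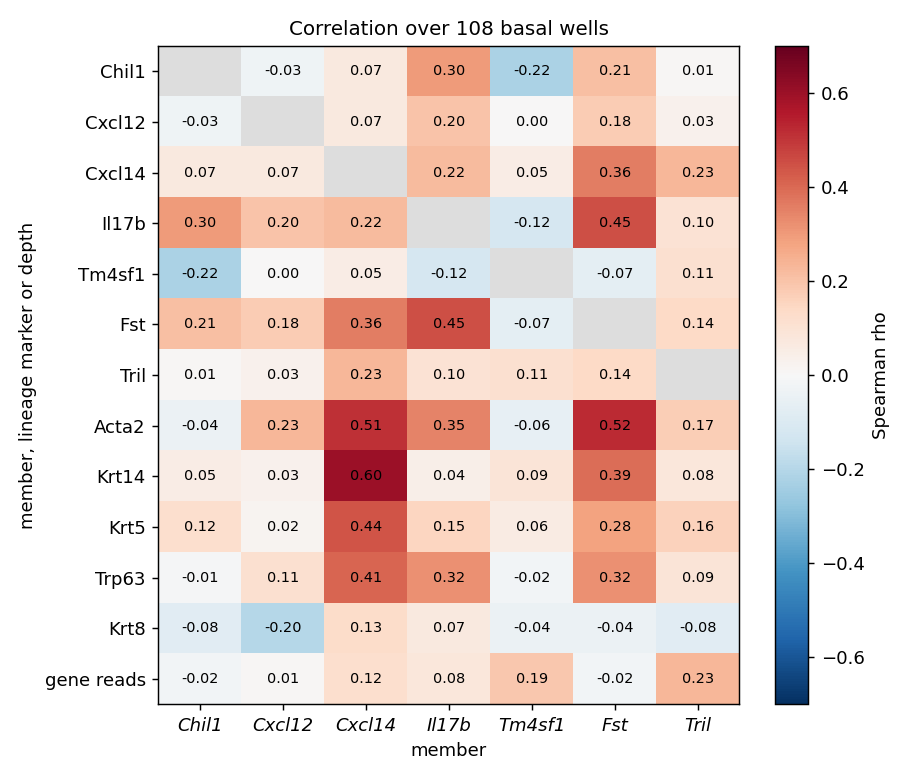
Spearman correlation over all basal wells of each member (columns) with the other members, 5 lineage genes and the number of gene reads (rows). Cxcl14 and Fst have their highest values with Krt14 (0.60) and Acta2 (0.52), and Chil1 with Tm4sf1 is lowest among the members, at −0.22.

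Among 4857 genes at 20 CPM or more with a read in at least 20% of basal wells, those most like each member by the same correlation were as follows. Cxcl14 lay nearest to Krt14 (0.60), Krt17 and Heg1 (both 0.54), Csrp1 (0.53) and Col17a1 (0.51), the last a hemidesmosome collagen. Fst lay nearest to Acta2 (0.52), Prelp (0.50), Plau, Fblim1 and Il17b (each 0.45). Il17b lay nearest to Alpl (0.52), Mgp (0.50), Lcn2 (0.48), 1500015O10Rik (0.46) and Fst. Chil1 lay nearest to Igfbp5 (0.49), Mmp2 (0.45), Lcn2 (0.41) and C4b (0.40), and Cxcl12 to Rflnb (0.43). Lcn2, a secreted iron-siderophore binder, thus stands beside both Il17b and Chil1 over all basal wells. Neighbours were not sought over the 86 wells without other markers, where Cxcl14 with Krt14 and Fst with Acta2 gave lower values. No gene reached 0.4 for Tm4sf1 or Tril.

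Receptors and partners of the members were described from lists chosen with earlier results known. Of the CXCL12 receptors, Ackr3 was 121.3 CPM (118.4 to 124.2) in basal, 35.6 in luminal and 16.9 in embryonic wells, and Cxcr4 was 8.21, 15.5 and 4.54. Of 25 other chemokine ligands, 9 were measured between basal and embryonic wells, with 6 at least 2-fold higher and 2 lower in basal. Against luminal wells 2 were higher and 4 lower. Of all measured genes, 20% were at least 2-fold higher in basal than embryonic wells. Against luminal wells 29.3% of them were higher and 22.1% lower in basal. The share lower in basal than embryonic wells was not counted, here or for the lists below. Cxcl1, a neutrophil chemokine, was 230 CPM in basal, 1106 in luminal and 7.92 in embryonic wells, and 57.7% of its basal reads were in 1 well. Cxcl2 was 65.4 in basal, where 99.9% of reads were in 1 well, and 577 in luminal wells. Cxcl16 was 86.1 CPM in luminal wells, 1.44-fold higher in basal wells and 0.823 in the embryo, and Cx3cl1 was 112.1, 70.5 and 36.6 in the same order.

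Of the interleukin 17 list, 5 of 11 genes were measured between basal and embryonic wells. Of these, 3 were higher in basal, where 20% of all measured genes were, and 1 was lower. Between basal and luminal wells none was higher and 2 were lower, against 29.3% and 22.1% of all measured genes. None of the other ligands reached 5 CPM in any gate. Il17rb, the receptor of Il17b, was 1.59 CPM in basal, 0.790 in luminal and 2.10 in embryonic wells. Il17re was 21.4, 76.3 and 17.8, with 72.9% of its basal reads in 1 well, and Il17rd 5.85, 2.93 and 34.7. At these levels a receptor in single wells was mostly not detectable.

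Genes around follistatin were spread over all 3 gates. Of 15 activin and BMP ligands and receptors, 14 were measured between basal and embryonic wells. Of these, 2 were at least 2-fold higher in basal, where 20% of all measured genes were, and 8 were lower. Between basal and luminal wells 12 were measured, with 7 higher and 2 lower, against 29.3% and 22.1% of all measured genes. The median log2 ratios were −1.37 and 1.30, beside −0.38 and 0.14 over all measured genes. Acvr2a, an activin receptor, was 277 CPM (272 to 281) in basal, 71.03 in embryonic and 22.2 in luminal wells. Inhba, which encodes the subunit of activin A that follistatin binds, was 28.8 CPM in embryonic wells and 3 reads in each adult gate, and Inhbb was 77.01 in luminal, 9.0 in embryonic and 7.59 in basal wells. Bmp7 was 139, 51.6 and 1.04 CPM in embryonic, basal and luminal wells, Bmpr2 220.4, 256 and 129.9, and Bmpr1a 176, 149 and 112.6. Acvr2b was 94.96, 36.6 and 3.12. Of the follistatin-like genes, Fstl1 was 521 CPM in basal, 441 in embryonic and 6.22 in luminal wells, and Sparcl1 was 244, 19.6 and 1.62. At equal depth Fstl1 was found in 54.6% of basal wells but Sparcl1 in 10.2%, with 32.4% of its basal reads in 1 well.

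The Toll-like receptor list, taken for Tril, ran mostly the other way from Tril in the adult gates. Of 10 genes measured between basal and luminal wells, 1 was at least 2-fold higher and 8 lower in basal. Of all measured genes, 29.3% and 22.1% were. The median log2 ratio of the list was −1.86, beside 0.14 over all measured genes. Tlr2, the one higher, was 103.5 CPM (100.8 to 106.2) in basal, 30.1 in luminal wells and 2 reads in embryonic wells. Cd14, the co-receptor for bacterial lipopolysaccharide, was 1065 CPM in luminal and 62.3 in basal wells, where 95% of its reads were in 1 well. Tlr4, with which Tril was first described, was 62.9 CPM in luminal and 8.80 in basal wells, 99.8% of the latter from 1 well, and had no embryonic read. Lbp was 136.2 and 24.4 CPM in luminal and basal wells, and Myd88 72.9 and 84.4. Against embryonic wells 6 of 10 were higher in basal, where 20% of all measured genes were, and 2 were lower. Of the chitinase-like list 2 of 9 genes were measured, Tmem219, a receptor subunit for chitinase-like proteins, at 28.9, 27.4 and 27.6 CPM in basal, luminal and embryonic wells, and Ovgp1 at 24.6 CPM in basal wells, 99.6% of it in 1 well. None of 4 other genes of the Tm4sf1 family was measured.

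The wells of 50 cells were separate libraries of the same gates and kept the direction of every ratio of at least 2-fold among measured members except Cxcl14 in basal over embryonic. In the luminal one Cxcl12, Cxcl14, Il17b, Fst and Tril had 0 reads, where 3 reads would be 5.63 CPM, and Chil1 and Tm4sf1 had 387 (336 to 443) and 4240 (4067 to 4418). Against that floor the basal well was at least 54.9-fold higher for Cxcl12, 47.2-fold for Cxcl14, 27.4-fold for Il17b, 158-fold for Fst and 53.7-fold for Tril. In the basal one Fst was 890.4 CPM, Cxcl12 309, Tril 302 and Il17b 155 (124.7 to 189). The gates also occupied different rows of the plate. In rows that held both, 66 basal and 25 embryonic wells again gave 6 members higher in basal, and 24 basal and 17 luminal wells gave 6. Most of the ratios were smaller there. The basal over luminal log2 ratio was 3.95 for Cxcl12 in place of 6.89, 2.75 for Cxcl14 in place of 5.79, 4.28 for Fst in place of 6.48, 5.02 for Il17b in place of 6.62 and 6.10 for Tril in place of 7.25. The basal over embryonic log2 ratio was 8.98 for Chil1 in place of 10.22, 5.95 for Cxcl12 in place of 7.87, 7.03 for Tm4sf1 in place of 8.73 and 5.40 for Fst in place of 6.41.

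**Figure D5:**
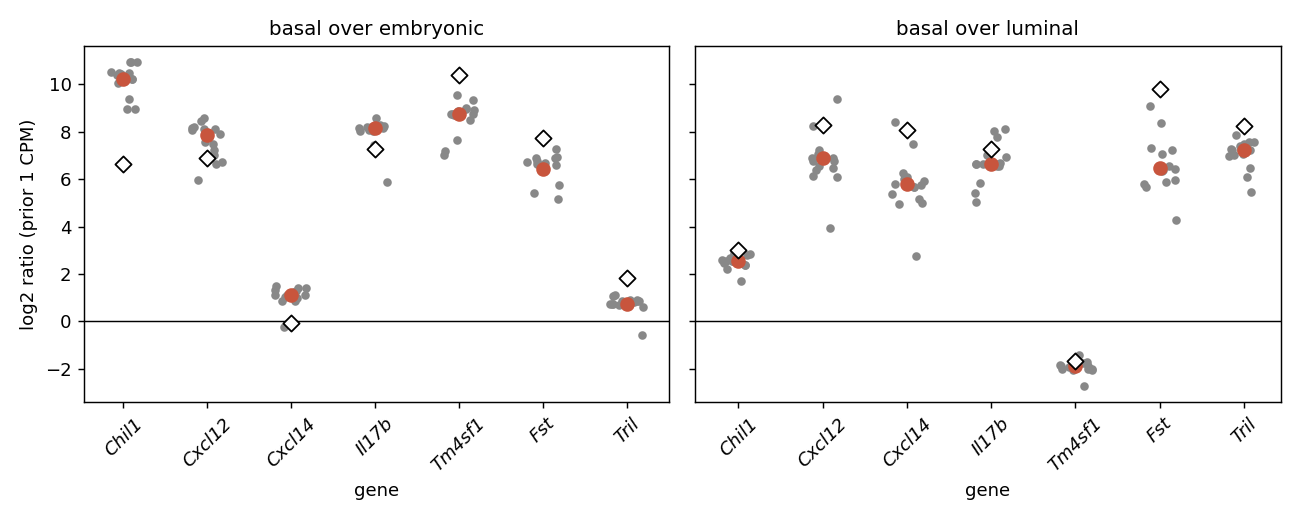
Log2 ratio of each gene, with 1 CPM added, for basal over embryonic (left) and basal over luminal (right): the summed wells as a large red point, each other scaling or choice of wells in grey, and the wells of 50 cells as a diamond. Cxcl14 and Tril lie on both sides of 0 in basal over embryonic, and Tm4sf1 lies below 0 throughout in basal over luminal, from −2.72 to −1.43 in grey.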

How the data were processed

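The deposited values were raw read counts per gene and well, in 1 table that covers 384 wells, 49585 genes and 92 spike-ins. GRCm38 is the genome, and HTSeq 0.6.0, STAR 2.5.2b and cutadapt 1.13 are the tools of the authors per the submitters' processing notes. Annotation and strand setting: not given in the sources used here. Per the labels' protocols, libraries were Smart-seq2 with oligo-dT priming, spike-ins and 24 amplification cycles, each well its own library.

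Wells were grouped by sort label, and 1 well with conflicting labels was left out. Single-cell wells needed 50000 gene reads. Counts were summed per gate to CPM, with exact Poisson, conditional ratio and Clopper-Pearson intervals (Python 3.11.15, numpy 2.4.6, scipy 1.17.1, pandas 2.3.3). Detection meant 5 reads after thinning to 50000. With each gate 1 sample, no test was run. The scripts were tested on simulated data. A well carried a marker list at 3 detected markers. Lists were basal, luminal, hormone-sensing, secretory, fibroblast, endothelial, pericyte, immune and suprabasal. Symbols and coordinates came from GENCODE M21 (49326 identifiers matched, 5577 without version, 259 not).

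The members and lists were chosen with earlier results of these data known. Named genes were the 7 members, up to 6 genes per pathway list at 20 CPM or more, and up to 5 genes per member with a correlation of 0.4 or more; other genes named were chosen after their values were seen. Alternatives were TMM (edgeR 4.0.16), median-of-ratios (DESeq2 1.42.0), totals without the 100 top genes or from spike-ins, mean CPM, thinned wells, the wells of 50 cells, other filters on wells and levels, a prior of 5 CPM, plate rows with both gates, and leaving out doubtful or top wells or rows shared with basal wells.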

Additional observations from a re-analysis of the deposited data

Results flagged for a closer look

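A single well had a title and a sort label that disagree on its gate, and its 774060 gene reads were left out of the comparisons. It held 2925 reads of Tm4sf1, 3779 CPM (exact 95% Poisson interval 3643 to 3918). The wells without a cell had no member read, but at 34 to 563 gene reads they are too shallow to serve as a background. In the well with disagreeing labels the other 6 members had 0 reads, each below the 4.77 CPM that a count of 0 allows as the upper end of that interval. Krt8 was 1543, Krt18 4095 and Lgr5 187 CPM in it, and Krt14 had no read.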

How the results depend on the processing

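The count of members at least 2-fold higher in basal than embryonic wells, 6, was 7 with TMM and median-of-ratios scaling, where Tril passed, and 5 with spike-in reads as the total, the mean of the wells' own CPM, thinned wells, and embryonic wells of rows with no basal well. The count against luminal wells was 6 in every alternative run. Members lower in embryonic than luminal wells numbered 2, 3 in 5 alternatives, and 4 with no minimum level, since Cxcl12 and Il17b then entered. The basal over embryonic log2 ratio of Cxcl14, 1.10, was −0.24 with spike-in reads as the total and −0.06 in the wells of 50 cells. Spike-in scaling moved the median of all genes by −1.29 in that comparison, TMM by 0.31; the spike-ins were 3.87% of embryonic, 9.26% of basal and 5.43% of luminal reads. Of all log2 ratios recomputed, 211 moved beyond the counting interval. Signs also changed for Tril in basal over embryonic, 0.75, which was −0.58 with spike-in reads as the total, and among luminal over embryonic ratios of genes scarce in both gates: Cxcl12, 0.98, in 4 alternatives (−1.38 to −0.14) and Fst, −0.07, in 6 (0.12 to 1.03). The share of basal wells with a member, 97.2%, was 99.1% without thinning and with 1 read as detection. A comparison of the 86 basal wells with luminal wells under 3 basal markers, and that of basal wells with wells of plate rows with no basal well, were added after the data were seen. No paired analysis was possible because the numbers of the wells only name them and no value comes from a test. At 50000 reads, 5 reads are 100 CPM, so a gene not detected is not an absent gene.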
